A study of Citrullus lanatus with 30 samples.

Results

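The comparison is of watermelon flesh labelled RF, of 30 DAP, with flesh labelled CT, of 20 DAP, the last step of a developmental series sampled at 6 stages. Its members are the 3 RF and the 3 CT libraries, 6 of the 30 RNA-seq libraries in the series, chosen by their labels, and levels were matched between libraries by the position of each locus. Both groups are flesh of Citrullus lanatus subsp. vulgaris cv. 97103, the inbred red-fleshed cultivar whose genome serves as a reference for the species, with no treatment given, so age is the one label that separates them. A further 3 libraries of flesh, labelled Mock, also carry an age of 20 DAP and are listed as wild type, without a cultivar label, and served as a second look at 20 DAP. Rind labelled R4, of the same cultivar, was represented by 2 libraries of 20 DAP (R4_CT) and 2 of 30 DAP (R4_RF), which share no library with the flesh comparison. These rind libraries have rind as their source but carry the tissue label flesh. Separate fruits for separate replicates are not stated in the labels, and p-values therefore speak for the variation among libraries alone, part or all of which may be technical.

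Watermelon flesh enlarges by cell expansion before it ripens. During ripening the cells store sucrose and hexoses in their vacuoles, cell walls soften, and in red-fleshed cultivars the plastids fill with lycopene as chlorophyll is lost. These processes are carried out by sugar transporters and sugar-cleaving enzymes, by wall-loosening proteins and by the carotenoid pathway. Loci in the deposited data are named by position alone on WM97pbV1 sequences, and what a locus encodes, or which of its bases are coding, was not analysed here. Transcripts are therefore described by position, span, level and course, and whether RF flesh carries markers of ripeness could not be checked.

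Summed levels were 797712 to 805032 FPKM (fragments per kilobase of locus, scaled to library size) in RF and 859473 to 886495 FPKM in CT, and 14199 to 14278 loci reached 1 FPKM in each of the 6 libraries, of 22596 listed. Read totals are unknown. Among loci under 0.5 FPKM, where a value rests on few fragments, one ratio recurred between RF replicate 1 and each other library, held within 1% by 6.82% to 18.5% of these loci against 0.471% to 0.633% in a typical window of that width. Taken as relative depth, it placed the other 5 libraries at 0.887 to 1.06 times RF replicate 1, so depth differed little between the ages, but absolute totals are missing, which leaves every value without a counting interval. CT libraries varied more than RF libraries. At loci of 10 FPKM or more, replicates had a median coefficient of variation of 6.20% in CT and 3.40% in RF, and CT replicate 3 lay farthest from its group mean (SD of log2 deviations 0.131, against 0.0970 and 0.0918 in the other CT libraries).

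Most loci differed between CT and RF, the majority of them by less than 2-fold. Of 17337 loci tested, 5767 rose (33.3%) and 4871 fell (28.1%) at an adjusted p under 0.05 in limma's moderated test on log2(FPKM + 1). Of these, 4858 rises and 4164 falls were smaller than 2-fold. At least 2-fold, 909 loci rose (5.24%) and 707 fell (4.08%). In 902 and 700 of them the 3 RF libraries lay wholly apart from the 3 CT libraries, which their selection on these libraries favours. Of all tested loci, RF lay wholly higher at 34.2% and wholly lower at 29.3%. With a pseudocount of 1, larger changes were also more often rises: 193 loci rose and 116 fell by at least 4-fold, 56 and 27 by at least 8-fold, and 15 and 7 by at least 16-fold. The median log2 change over all tested loci was 0.01, with a median standard error of 0.07. Each standard error and p-value draws on the spread of all 16 stage libraries, not of CT and RF alone. With median-of-ratios scaling 5241 loci rose and 5542 fell, which reverses the prevailing direction among all calls, whereas at 2-fold the counts were 849 and 791. At a pseudocount of 0.1 in place of 1, the 2-fold counts were nearly even, at 1332 rises and 1322 falls. With CT and Mock together as 20 DAP, far fewer were called: 1706 of 15544 loci rose (11.0%) and 1507 fell (9.7%). That fit counts the gap between CT and Mock as spread within 20 DAP. In bulk tissue, fewer cells of a type and less RNA per cell cannot be told apart.

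**Figure D1:**
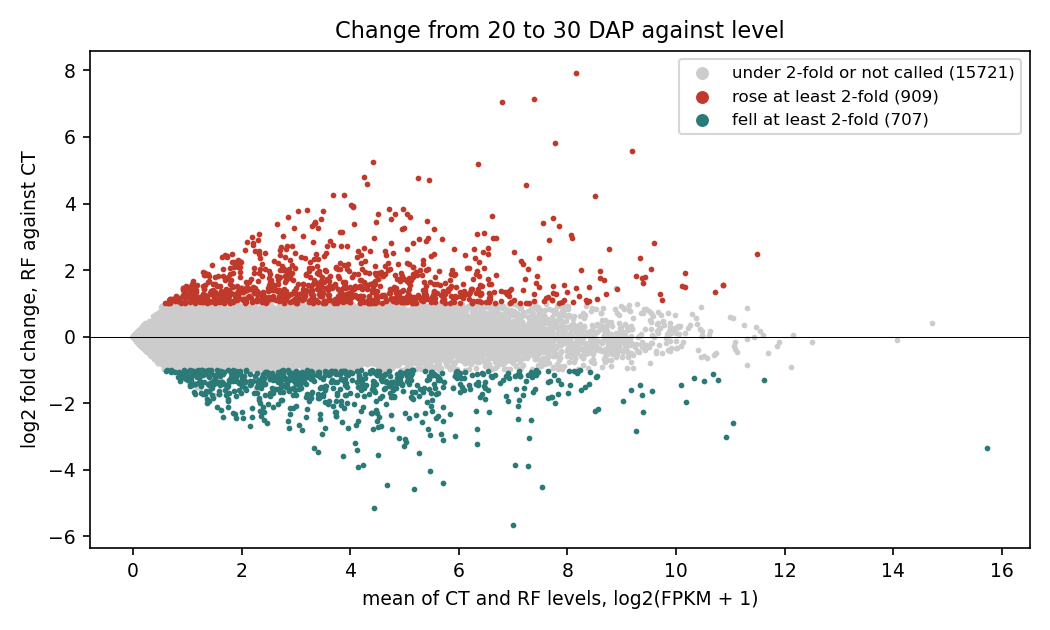
Log2 fold change of RF against CT (y axis) against the mean of the 2 group levels as log2(FPKM + 1) (x axis), 1 point per tested locus. The 909 loci that rose and the 707 that fell by at least 2-fold are coloured; changes reach a log2 of 7.91 upward and -5.66 downward, and the most abundant locus, at the far right, fell.

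In summed level the change was dominated by one transcript. At chr10:21559312-21559608, a locus of 297 bp, CT replicates held 109151, 110618 and 77731 FPKM and RF replicates 9372, 9502 and 9779 FPKM. Every CT library lay far above every RF library, with a mean 10.4 times higher at 20 DAP (log2 difference -3.36 ± 0.29 SE, adjusted p = 5.02e-07 by limma). This locus made up 8.77% to 12.8% of the summed level in CT libraries and 1.16% to 1.22% in RF. It accounted for 89616 of the 133680 FPKM lost over the 707 loci that fell, or 67.0%. Mock flesh, also of 20 DAP, held 12830 to 13252 FPKM at it, close to RF and not to CT. Rescaling every library to a common total without this locus gave 5402 rises and 5272 falls (862 and 751 at 2-fold or more).

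The summed level was less concentrated in RF than in CT. The 10 most abundant loci held 19.9 ± 2.33% of it in CT (SD, n = 3) and 10.7 ± 0.26% in RF, and the top 100 held 34.5 ± 1.57% and 26.6 ± 0.18%. Mock, the other flesh of 20 DAP, was below RF on both measures, at 8.19 ± 0.28% and 24.2 ± 0.47% (SD, n = 3). The most abundant locus of RF, chr8:4243307-4243756, stood at 21906, 25023 and 22725 FPKM in CT and at 29869, 30607 and 31730 FPKM in RF. The 3 RF values were the higher ones, and the rise over CT was small (log2 difference 0.41 ± 0.11 SE, adjusted p = 0.00703 by limma). Mock held 6544 to 8617 FPKM, below CT, and against Mock the log2 difference was 2.004. Gains at 2-fold were spread more widely than losses: the 909 risen loci gained 52904 FPKM together, and the 10 largest gains made up 29.9% of it.

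Among loci that rose at least 2-fold, the largest gain in FPKM was at chr9:3600867-3601073, a locus of 207 bp, with 791, 874 and 961 FPKM in CT and 5078, 4770 and 4825 FPKM in RF. The groups did not overlap and the mean was 5.59 times higher at 30 DAP (log2 difference 2.48 ± 0.23 SE, adjusted p = 8.54e-07 by limma). At earlier stages it had been scarcer, with 20.2 FPKM at 0 DAP and 64.0 FPKM at 10 DAP. The next largest gain among these 2-fold loci was at chr7:3768191-3777136, with 947, 924 and 1000.4 FPKM in CT and 2821, 2796 and 2772 FPKM in RF. Its RF libraries lay close together, with a mean 2.92 times that of CT (log2 difference 1.55 ± 0.19 SE, adjusted p = 1.15e-05 by limma). At 10 DAP it had stood at 3.14 FPKM, so most of its relative increase came before 20 DAP. Mock flesh lay between the 2 stage groups at both loci, at 1405 to 1907 FPKM for the first and 1975 to 2085 FPKM for the second.

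Among loci that fell at least 2-fold, the second largest loss in FPKM was at chr5:10117915-10121202. CT replicates held 3472, 3446 and 3463 FPKM and RF replicates 423, 418 and 444 FPKM, a narrow spread in both groups and a mean 8.08 times lower at 30 DAP (log2 difference -3.01 ± 0.17 SE, adjusted p = 9.46e-09 by limma). The transcript had built up late, from 7.84 FPKM (5 DAP) and 92.6 FPKM (10 DAP), and among the stages it was highest at 20 DAP. Mock flesh stood between the groups, at 1335 to 1418 FPKM.

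The largest relative rises were at 2 loci that were near the bottom of the range at 20 DAP. At chr1:69753-70532 CT replicates held 1.70, 0.777 and 1.80 FPKM and RF replicates 569, 553 and 591 FPKM, about 401 times more in the mean (log2 difference 7.91 ± 0.16 SE, adjusted p = 2.86e-13 by limma). At chr8:3714025-3714591 CT replicates held 1.01, 1.20 and 1.91 FPKM and RF replicates 335, 321 and 340 FPKM (log2 difference 7.15 ± 0.24 SE, adjusted p = 5.05e-11 by limma). Neither overlapped between ages, and in Mock they were at 5.78 to 7.75 and 2.92 to 3.90 FPKM, above CT and far below RF.

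The largest relative falls followed different earlier courses. The transcript of chr11:11861823-11863862 was already past its highest level, 1605 FPKM at 10 DAP, and stood at 258, 217 and 272 FPKM in CT and at 4.35, 3.36 and 4.06 FPKM in RF (log2 difference -5.66 ± 0.10 SE, adjusted p = 1.16e-13 by limma). That of chr11:7970524-7970829 was highest at 20 DAP, at 44.8, 40.3 and 38.6 FPKM, and in RF it was listed at 0.273, 0 and 0.306 FPKM (log2 difference -5.15 ± 0.24 SE, adjusted p = 7.55e-10 by limma). Both were clear of overlap between the ages. In Mock the first stood at 0.259 to 1.70 FPKM, below RF, and against Mock its log2 fold change was 1.44, the opposite direction. The second stood at 2.33 to 5.86 FPKM in Mock, between CT and RF.

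**Figure D2:**
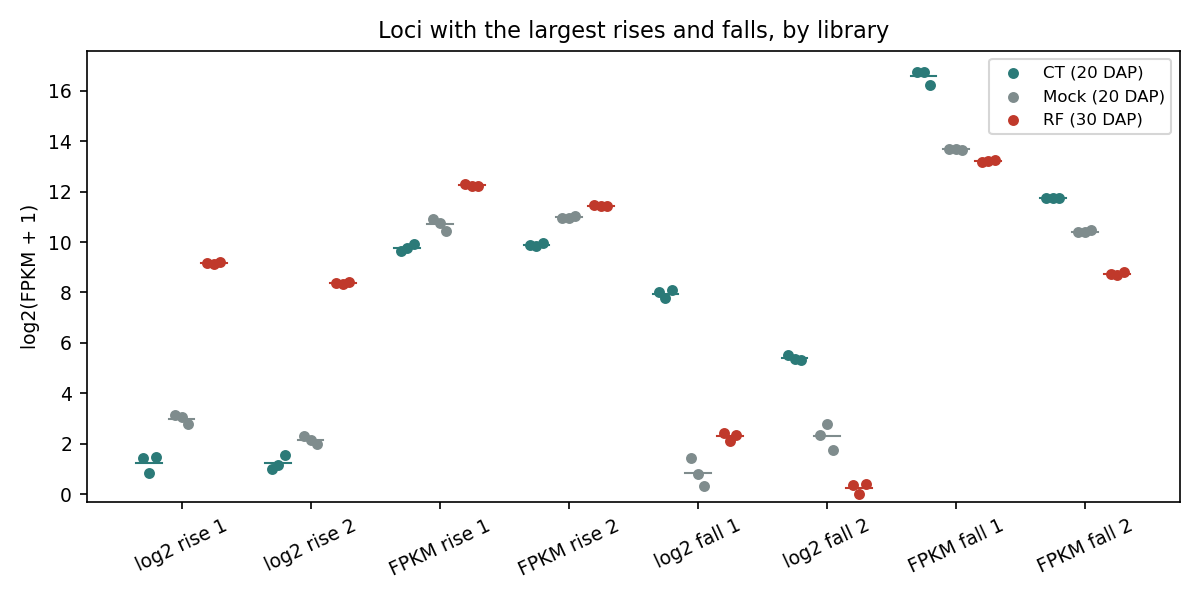
Levels as log2(FPKM + 1) (y axis) of 8 loci in each CT, Mock and RF library; points are libraries and short lines their mean on this scale. From left to right the loci are chr1:69753-70532, chr8:3714025-3714591, chr9:3600867-3601073, chr7:3768191-3777136, chr11:11861823-11863862, chr11:7970524-7970829, chr10:21559312-21559608 and chr5:10117915-10121202; CT and RF are apart at all 8, and Mock lies outside their span at the fifth.

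The 15 loci that rose at least 16-fold lay on 8 of the 11 chromosomes and had spans of 222 to 3181 bp. Their RF means ran from 23.3 to 1138 FPKM with a median of 157 FPKM, and no CT mean exceeded 35.5 FPKM. Of these 15 loci, 6 had been under 1 FPKM at 0, 5 and 10 DAP. The 7 loci that fell at least 16-fold had CT means of 41.2 to 355 FPKM and RF means of 0.193 to 14.6 FPKM. Mock was nearer to RF than to CT at 4 of the 15 risen loci and at all 7 of the fallen ones.

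Under 1 FPKM in CT and at 10 FPKM or more in RF were 25 loci past the threshold, with a median RF level of 16.8 FPKM, and 12 of them were also under 1 FPKM at 0, 5 and 10 DAP. In Mock, 6 of the 25 were under 1 FPKM and 4 were at 10 FPKM or more. The reverse course was taken by 3 loci, which are named here after their values were seen. Beside chr11:7970524-7970829 they were chr11:27416487-27417088, which fell from 18.4, 20.0 and 17.2 FPKM to 0.211, 1.12 and 1.07 FPKM (log2 difference -3.48 ± 0.16 SE, adjusted p = 9.37e-10 by limma), and chr1:1141359-1144070, which fell from 16.8, 15.9 and 19.2 FPKM to 1.53, 0 and 1.28 FPKM (log2 difference -3.35 ± 0.26 SE, adjusted p = 1.43e-07 by limma). Both of these had stood higher at 10 DAP, at 125 and 42.3 FPKM. In Mock the first held 1.71 to 2.25 FPKM, close to RF, and the second 7.64 to 8.73 FPKM, between CT and RF.

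At the 2-fold loci as a set, Mock flesh stood nearer to RF than to CT, although its age label is that of CT. The 909 risen loci had a median level of 4.64 FPKM in CT, 14.3 FPKM in Mock and 18.1 FPKM in RF. The 707 fallen loci had medians of 16.3 FPKM in CT, 8.12 FPKM in Mock and 4.56 FPKM in RF. On the log2(FPKM + 1) scale, with CT set to 0% and RF to 100%, the mean of Mock lay at a median of 70.8% for risen and 63.5% for fallen loci, and single Mock libraries at 69.9% to 72.3% and 63.1% to 66.3%. It was nearer to RF at 569 risen loci (62.6%) and at 412 fallen loci (58.3%). The remainder did not simply resemble CT: at 127 risen and 152 fallen loci Mock lay beyond CT, away from RF, and at 340 and 222 it lay beyond RF. These shares are a description, since the loci were selected on CT and RF. Over all 17337 tested loci, group means on the log2 scale correlated at 0.911 between Mock and CT, 0.925 between Mock and RF, and 0.957 between CT and RF, which share a number format that Mock does not have (6 significant digits in the stage libraries, 6 decimals in Mock). The part of the number format, or of a mock treatment, in the difference between both sets of 20 DAP flesh was not tested. With Mock in place of CT, in a fit of 6 libraries, 15231 loci were tested. Of these, 4944 were higher (32.5%) and 7019 lower (46.1%) at 30 DAP. At 2-fold or more the counts were 1006 (6.6%) and 2537 (16.7%). With CT and Mock together as 20 DAP, 1706 of 15544 loci rose and 1507 fell. Calls were then lost at chr10:21559312-21559608 (adjusted p = 0.169 by limma), chr8:4243307-4243756 (0.126), chr7:3768191-3777136 (0.0642), chr11:11861823-11863862 (0.516), chr2:2318647-2319172 (0.627) and 4 neighbouring loci at chr2:5096829-5152946 (0.0907 to 0.803).

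**Figure D3:**
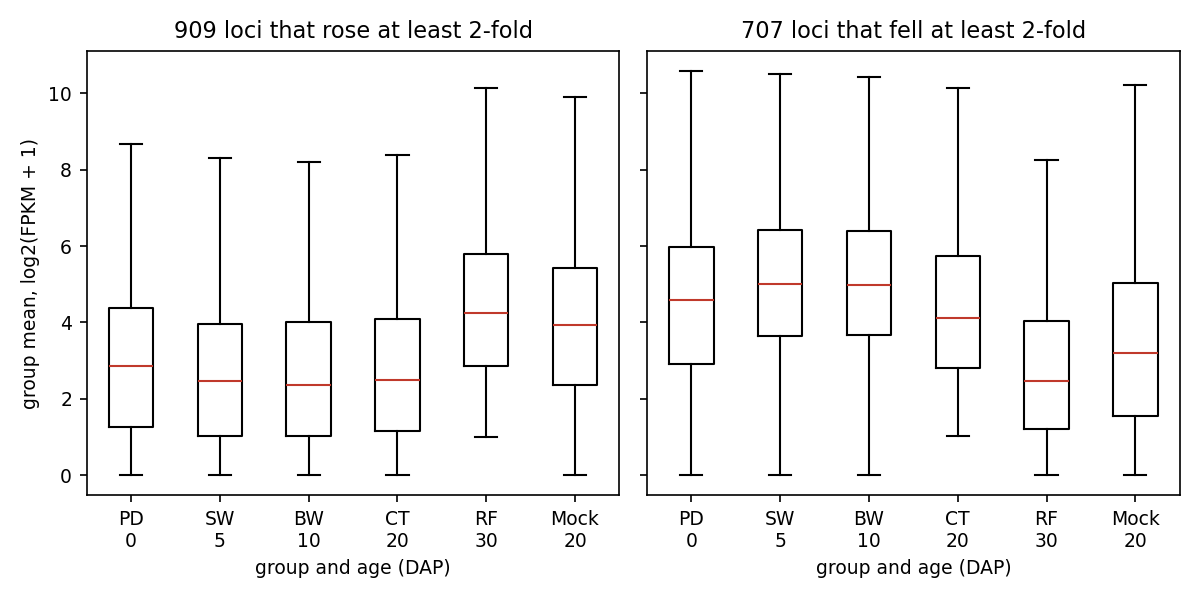
Group means as log2(FPKM + 1) (y axis) of the 909 loci that rose (left) and the 707 that fell (right) by at least 2-fold from CT to RF, by group and age (x axis). Boxes span the quartiles with the median as a line, whiskers reach the farthest loci within the usual multiple of the box height, and loci beyond are not drawn; CT and RF differ because the loci were chosen on them, and the Mock median lies between them and nearer to RF in both panels.

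Most fallen loci had stood higher before 20 DAP. Of the 707, 541 (76.5%) had their highest stage mean earlier. No background share is set beside this, since loci chosen for RF below CT cannot be highest at 30 DAP. That stage was 0 DAP for 181, 5 DAP for 199 and 10 DAP for 161 of them, while 166 peaked at 20 DAP. From 10 to 20 DAP, 259 of them (36.6%) were already lower by at least 2-fold on the FPKM + 1 scale, against 13.5% of all tested loci. At 321 of them the RF level was under 10% of the highest mean at 0, 5 or 10 DAP. Their median level was 23.2 FPKM in the 0 DAP group and 31.3 FPKM in the 5 DAP group, and it then went from 30.5 FPKM (10 DAP) through 16.3 FPKM (20 DAP) to 4.56 FPKM (30 DAP).

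Most risen loci were highest at 30 DAP, and some had been as high at an earlier stage. Of the 909, 672 (73.9%) had their highest stage mean at 30 DAP, a share that the choice of loci with RF above CT favours, and at 456 the RF mean was at least 2-fold over every mean at 0, 5 and 10 DAP. Under 1 FPKM at all of 0, 5, 10 and 20 DAP were 82 loci. At 237 risen loci (26.1%) some earlier stage had stood at or above the RF level, and for 165 (18.2%) the highest stage was 0 DAP. Of all tested loci 68.5% were highest before 20 DAP and 38.5% at 0 DAP, but the choice of the risen loci lowers both of their shares. At least 2-fold higher at 20 than at 10 DAP were 167 risen loci (18.4%), against 5.13% of all tested loci. The same held for 76 fallen loci (10.7%). Lower by at least 2-fold at 20 than at 10 DAP were 126 risen loci (13.9%), close to the 13.5% of all tested loci. These counts used stage means of 3 libraries each (0, 5, 10, 20 and 30 DAP), and the 10 to 20 DAP changes use the same CT libraries as the comparison.

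By position, the changes were spread over the whole genome. The share of tested loci that rose at least 2-fold ran from 4.50% on chromosome 11 to 6.15% on chromosome 8, and the share that fell from 3.30% on chromosome 7 to 4.83% on chromosome 10. On a finer scale, neighbours moved together more often than loci in general. The next tested locus also rose at least 2-fold for 79 of 909 risen loci (8.69%, against 5.24% of all tested loci), and also fell for 76 of 706 fallen loci with a neighbour (10.8%, against 4.08%). In all, 145 risen loci lay in 66 runs of neighbours and 142 fallen loci in 66 runs, the longest of 4 loci. No sequence was compared, so whether neighbours are near-identical copies that share reads is not known, and their separate values are uncertain to that extent.

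The leading run of rises was at chr7:3944960-3954891, 9.93 kb with 5 listed loci, of which 4 were tested and rose, all with spans of 315 to 480 bp. Its most abundant member, chr7:3946177-3946656, went from 287, 291 and 327 FPKM in CT to 1042, 1011 and 1037 FPKM in RF (log2 difference 1.77 ± 0.06 SE, adjusted p = 2.71e-11 by limma). The member with the largest change, chr7:3954412-3954891, went from 53.6, 55.6 and 61.4 FPKM to 482, 473 and 480 FPKM (log2 difference 3.05 ± 0.05 SE, adjusted p = 4.81e-14 by limma). The groups were apart at both. The other two rose from 12.6 ± 1.43 to 57.0 ± 2.33 FPKM (SD, n = 3) and from 0.517 ± 0.452 to 3.29 ± 1.07 FPKM. Mock held 331 to 350 FPKM at chr7:3946177-3946656 and 108 to 119 FPKM at chr7:3954412-3954891, nearer to CT. A second run of 4 rises spanned chr7:29830229-29857219, with log2 fold changes of 1.00 to 2.45.

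The leading run of falls was at chr2:5096829-5152946, 56.1 kb with 4 listed loci, all tested. A pair of the members was among the abundant transcripts of younger flesh. The level of chr2:5151239-5152946 had been 4789 FPKM in flesh of 5 DAP and 4848 FPKM in flesh of 10 DAP, and it fell from 1169, 1201 and 855 FPKM in CT to 142, 150.1 and 150.1 FPKM in RF (log2 difference -2.84 ± 0.09 SE, adjusted p = 2.84e-11 by limma). The level of chr2:5131165-5133091 was 8334 FPKM at 5 DAP, and it fell from 168, 164 and 106 FPKM to 15.8, 15.7 and 11.7 FPKM (log2 difference -3.24 ± 0.15 SE, adjusted p = 8.36e-10 by limma). In both, CT replicate 3 was the lowest CT library and still far above RF. Mock, also of 20 DAP, was close to RF at both, with 164 to 184 FPKM at chr2:5151239-5152946 and 24.2 to 28.8 FPKM at chr2:5131165-5133091, and against Mock the log2 differences were -0.22 and -0.82. With CT and Mock together as 20 DAP neither call held (adjusted p = 0.216 and 0.0907 by limma). Before both on the chromosome lay chr2:5115944-5116894, which fell from 263, 272 and 198 FPKM to 13.9, 18.1 and 15.4 FPKM (log2 difference -3.86 ± 0.14 SE, adjusted p = 1.11e-10 by limma). Mock held 1.95 to 2.89 FPKM there, under RF, and against Mock its log2 fold change was 2.34, the opposite direction. The fourth member, chr2:5096829-5097986, was low at both ages, at 2.85 ± 0.50 and 0.159 ± 0.105 FPKM (SD, n = 3). Its Mock mean was 0.0664 FPKM, under that of RF. A second run of 4 falls lay within chr10:31705199-31744958, with log2 fold changes of -3.50 to -1.12.

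Short loci changed more often than long ones. Of loci with a span of up to 500 bp, 9.13% rose and 6.31% fell by at least 2-fold, and the shares declined to 2.19% and 1.10% over 8000 bp. The median span was 1904 bp for risen and 1764 bp for fallen loci, against 2675 bp for all tested. Short loci were also measured less precisely, with a median standard error of the log2 change of 0.205 up to 500 bp against 0.0506 over 8000 bp, and they were lower in level (median 4.95 against 15.8 FPKM). Among loci with a mean level of 10 FPKM or more the shares were 10.8% and 8.32% up to 500 bp and 2.03% and 1.18% over 8000 bp, and the standard errors 0.136 and 0.0438. The part of precision in the trend was not tested. Span here includes any introns.

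**Figure D4:**
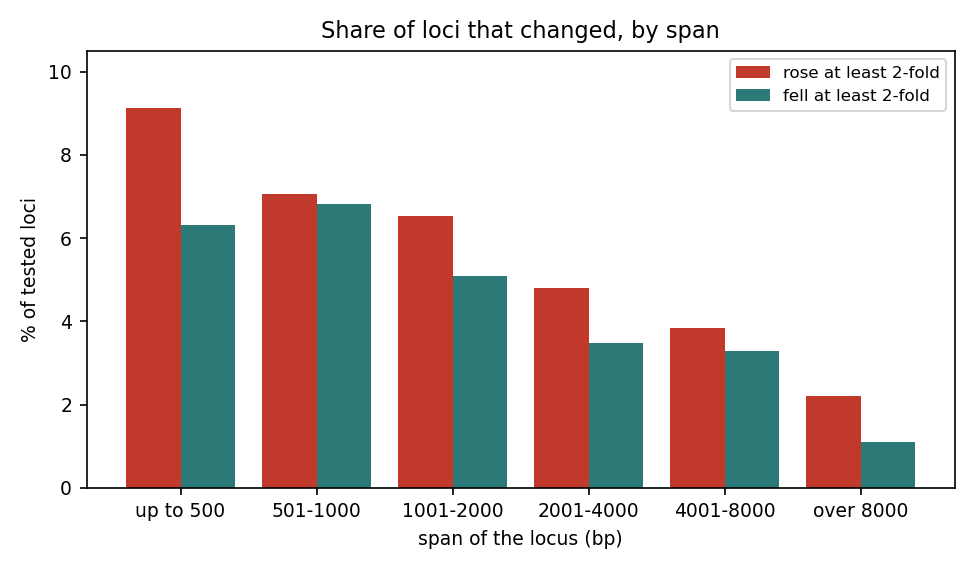
Percentage of tested loci (y axis, from 0) that rose or fell by at least 2-fold from CT to RF, by the span of the locus in bp (x axis). The share of rises declines from 9.13% at up to 500 bp to 2.19% over 8000 bp, and that of falls from 6.31% to 1.10%.

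Rind R4 of the same 2 ages gave a second view of the interval, though its spread was estimated together with that of CT and RF. Between R4_CT and R4_RF, 4067 of 16945 tested loci rose (24.0%) and 4369 fell (25.8%). At 2-fold or more these counts were 523 (3.09%) and 1313 (7.75%). Of the 909 loci that rose at least 2-fold in flesh, 417 (45.9%) also rose in rind and 195 (21.5%) fell, against 24.7% and 25.7% of the 15955 loci tested in both tissues. Of the 707 fallen loci, 395 (55.9%) also fell in rind and 96 (13.6%) rose. The rind changes of these loci were smaller, with a median log2 change of 0.23 at the risen and -0.46 at the fallen loci, against 1.39 and -1.37 in flesh, where the loci were selected. Across the 15955 loci the changes in the 2 tissues correlated at a Pearson r of 0.261 and a Spearman rho of 0.234, given as a description, since loci are not independent replicates.

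The difference between the tissues was tested as an interaction, the flesh change minus the rind change. It passed the threshold at 8943 of 16945 loci (52.8%, limma adjusted p under 0.05), above 0 at 5132 (30.3%) and below 0 at 3811 (22.5%), and at 786 of the 909 risen loci (86.5%) and 555 of the 707 fallen loci (78.5%), which were chosen for a large change in flesh. At 750 of the risen loci it was above 0, and at 493 of the fallen loci below 0. Flesh and rind were written in different number formats, each the same at both ages of its tissue, and the interaction spans both formats. The part of the format in the interaction was not tested. The 2 rind libraries per group borrow their spread from the other groups of the fit.

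At 3 of the 4 loci with the widest differences, levels moved in opposite directions in flesh and rind. The locus chr6:26539192-26540035 stood at 1.007, 0.805 and 1.496 FPKM in CT and at 29.5, 31.4 and 29.5 FPKM in RF, while in rind it went from 15.9 and 14.1 FPKM to 1.59 and 1.44 FPKM (interaction 6.57 ± 0.18 SE on the log2 scale, limma adjusted p = 6.20e-10). The locus chr11:1901495-1903825 stood at 0.216, 0.0445 and 0.0401 FPKM in CT and at 39.4, 41.6 and 40.7 FPKM in RF, and in rind at 1.34 and 0.889 FPKM at 20 DAP and 0 and 0.0989 FPKM at 30 DAP (interaction 6.25 ± 0.18, limma adjusted p = 8.42e-10). In the other direction, chr2:2318647-2319172 fell from 4.07, 4.65 and 3.63 FPKM to 0.184, 1.38 and 0.415 FPKM in flesh and went from 0.0994 and 0.135 FPKM to 46.5 and 44.0 FPKM in rind (interaction -7.06 ± 0.33, limma adjusted p = 5.47e-08). This last locus had been at 243 FPKM at 0 DAP, and in Mock it stood at 0, 0 and 0.151 FPKM, below every RF library. At chr11:11861823-11863862, the largest relative fall of flesh, rind stood at 13.4 and 10.8 FPKM at 20 DAP and 13.2 and 11.6 FPKM at 30 DAP (interaction -5.70 ± 0.22, limma adjusted p = 1.16e-08).

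**Figure D5:**
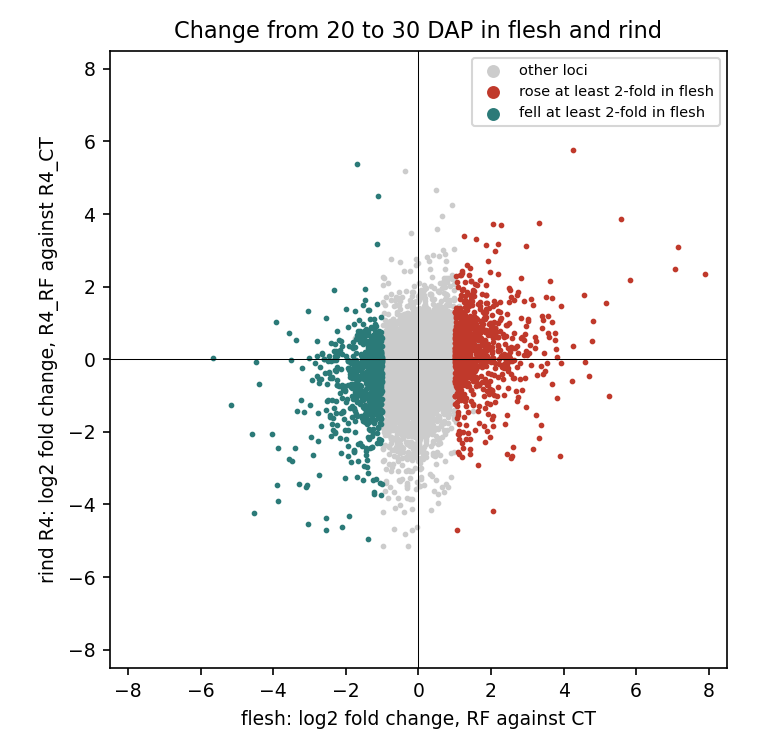
Log2 fold change from 20 to 30 DAP in rind R4 (y axis, R4_RF against R4_CT) against that in flesh (x axis, RF against CT), 1 point for each of 15955 loci tested in both. Of the loci that rose at least 2-fold in flesh 417 also rose in rind, and of those that fell 395 also fell; the fallen locus with the highest rind value is chr2:2318647-2319172.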

How the data were processed

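The deposited values are FPKM per locus, 1 library per file, as their file headers state, a unit in which the authors divided by length and library size. Tools listed in the submitters' processing notes are fastp, HISAT2 and SAMtools 1.5. For the quantifier and the annotation the entry is not given in the sources used here. Per the labels' protocols, total RNA was extracted with Trizol and treated with DNase I.

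Members and lists were chosen with earlier results of these data known. The 16 stage libraries whose values follow the loci entered one limma 3.58.1 fit (R 4.3.3, trended and robust) on log2(FPKM + 1), with loci at 1 FPKM or more in at least 3 libraries. AP replicates 1 and 2 were not used. In PD replicate 3, 11643 values were moved by 1 row. In CT replicate 1 a block of 50 loci that holds displaced rows was left out. Of these loci, 6 lay over 2-fold from the mean of the other CT libraries. The first 50 listed loci of AP replicate 3 were left out as well. Rind was fitted with CT, RF and R2_RF (12 libraries, 1 FPKM in at least 2). Benjamini-Hochberg adjustment ran over all tested loci, threshold 0.05, and fold changes understate low loci. The fits were also run on simulated data with the same spread per locus in all groups. Unequal spread of CT and RF was therefore not covered.

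Loci were named by rule: the 2 largest rises and falls in log2 (at least 10 FPKM in the higher group) and in FPKM (at least 2-fold), without overlap between the ages, the most abundant locus of each age, the longest runs and the largest interactions. Gene lists by product were not used, since loci carry no names. Between any 2 libraries of CT, or of RF, at least 80.6% of loci differed in value, so none of these was a duplicate. The other groups were not checked in this way.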

Additional observations from a re-analysis of the deposited data

Results flagged for a closer look

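At 19 named loci the change from 20 to 30 DAP differed between flesh and rind R4 by the interaction test (limma, adjusted p under 0.05, 3 and 2 libraries per group), in log2 units of flesh minus rind. Of all tested loci 52.8% passed this test. The count of 19 is largely set by how the loci were named, since 4 were taken for the largest interactions and most others for large flesh changes, which are a term of the contrast. The widest differences were 6.57 at chr6:26539192-26540035, 6.25 at chr11:1901495-1903825, -7.06 at chr2:2318647-2319172 and -5.70 at chr11:11861823-11863862. Among rises the value was 5.55 at chr1:69753-70532, 4.06 at chr8:3714025-3714591, 0.92 at chr9:3600867-3601073 and 0.24 at chr7:3768191-3777136 (limma adjusted p = 0.0343). All of these loci also rose in rind, by 2.36, 3.09, 1.57 and 1.30 in the same order. Among falls it was -3.90 at chr11:7970524-7970829, -3.90 at chr10:21559312-21559608 and -3.05 at chr5:10117915-10121202, and the last had a rind change of 0.04. In the run on chromosome 7 it was 1.24 at chr7:3944960-3945424, 0.46 at chr7:3946177-3946656, 1.79 at chr7:3946930-3947244 and 2.88 at chr7:3954412-3954891. In the run on chromosome 2 it was -0.91 at chr2:5096829-5097986, -1.43 at chr2:5115944-5116894, -2.12 at chr2:5131165-5133091 and -2.75 at chr2:5151239-5152946.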

How the results depend on the processing

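Read totals are unknown, so precision rests on the spread among libraries. The flesh fit pools that spread over all 16 stage libraries, not over CT and RF alone. Leaving out 1 CT or RF replicate gave 5344 to 5978 rises and 4555 to 4797 falls in flesh (851 to 949 and 688 to 723 at 2-fold or more). Leaving out 1 library of flesh or rind gave 3089 to 4386 rises and 3398 to 4598 falls in rind and 7858 to 9244 interactions, where a lone rind library borrowed its spread from other groups. At a pseudocount of 0.1, 1332 loci rose and 1322 fell by at least 2-fold, against 909 and 707 at 1, so the excess of rises nearly vanished. With Mock in place of CT, 2537 of 15231 tested loci (16.7%) fell by at least 2-fold. With CT and Mock together as 20 DAP, 1706 of 15544 rose and 1507 fell (403 and 425 at 2-fold or more). The cause was not tested. Against Mock, chr11:11861823-11863862 (1.44) and chr2:5115944-5116894 (2.34) changed sign on the log2 scale. With CT and Mock together, 9 named loci lost their call, in a fit that counts the gap between CT and Mock as spread. At chr2:2318647-2319172 and chr2:5096829-5097986 the Mock mean was also below that of RF, but both loci were too low to be tested against Mock. All other settings left the calls and signs of the 20 named loci as they were, wherever the locus was tested. Replicate numbers did not pair the libraries, since same-numbered CT and RF libraries deviated from their group means with correlations of -0.041, 0.045 and -0.008; with the replicate block 5727 loci rose and 4813 fell in flesh, and 4045 and 4353 in rind.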
